A study of Arabidopsis thaliana with 9 samples.

Results

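A total of 697 transcribed loci carried no Arabidopsis gene identifier (AGI) in the authors' annotation column, out of 33871 loci in the deposited table of Arabidopsis thaliana inflorescences. They were chosen by that missing identifier, a quantification status of OK in all 9 libraries and an FPKM above 0 in at least 3 libraries; the status and FPKM rules used measured values. FPKM is the fragment number scaled by locus length and library total. Before those rules 698 loci lacked an identifier, and the one left out, XLOC_022286 of 118 bp, was above 0 in 2 libraries only, at 948.1 and 474.6. Just inside the boundary lay 3 loci above 0 in exactly 3 libraries, with highest values of 2.73, 24.6 and 34.1. Because FPKM divides by length, the 225 loci under 300 bp are described separately from the 472 of 300 bp or longer.

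RNA was sequenced from inflorescences of 5-week-old plants grown in soil at 22 °C in long days. All plants, the controls included, carried 35S:AP1-GR in the ap1,cal background: a fusion of the floral regulator APETALA1 to the hormone-binding part of the glucocorticoid receptor, driven by the constitutive 35S promoter, in plants mutant for APETALA1 and its close relative CAULIFLOWER. The 3 groups of 3 libraries were untreated plants, plants given cycloheximide for 2 h, and plants given dexamethasone with cycloheximide for 2 h. Libraries are labelled as biological replicates with no further detail, so the p-values below measure the spread between these libraries, and in whole inflorescences fewer cells of a type and less RNA per cell cannot be told apart.

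Plant genomes are transcribed well outside their annotated genes: antisense RNAs, long non-coding RNAs, primary transcripts of microRNAs, RNA running past gene ends and transposon RNA are all known from Arabidopsis. Many such RNAs are short-lived, since the nuclear exosome and nonsense-mediated decay degrade them and DNA methylation keeps transposons silent. Cycloheximide stops translation elongation, and nonsense-mediated decay needs translation; dexamethasone lets the AP1-GR fusion enter the nucleus, and in the presence of cycloheximide the RNAs it changes need no new protein.

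The missing identifier did not mean that no gene lies there. Set against the RefSeq annotation TAIR10.1, whose nuclear chromosome sequences are those of the TAIR10 build of the table, 393 of the 697 loci overlapped a gene on their own strand. Of these, 143 lay in a gene that the authors' table names in another of its entries, 65 lay in a protein-coding gene that the table does not name, and 185 lay in a non-coding gene that it does not name. The last class held 98 genes of the type misc_RNA, 72 long non-coding RNAs, 11 small nucleolar RNAs, 2 small nuclear RNAs and 2 of the type ncRNA. Any overlap counted, so a locus said to lie in a gene can extend beyond it. A further 111 loci overlapped a gene on the opposite strand only, 40 lay within 500 bp downstream of a gene, 44 lay within 500 bp upstream of one, and 109 lay farther away on their strand. The label of loci without an annotated gene therefore held for 304 of 697 loci on their own strand, and among the 203 loci inside protein-coding genes 91 lay wholly in exons and 13 touched no exon.

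The lengths of the loci ran from 102 to 8015 bp, with a median of 593 bp in the longer class and 206 bp in the shorter one. The median GC content was 36.3% in the longer class, against 39.0% in loci of that length with an identifier and a mean FPKM of at least 1. The value of the members includes loci under that mean, so the 2 sets are not alike in level. The longest reading frame from ATG to a stop had a median of 42 codons in the longer class and 15 codons in the shorter one, and 17 loci held a frame of at least 100 codons. In 100 loci at least 50% of the sequence recurred elsewhere in the genome at 90% identity or more, and 71 overlapped another entry of the table on the same strand. Fragments of those 2 sets cannot be assigned to a single place with certainty. All 5 nuclear chromosomes held members, from 88 on chromosome 2 to 182 on chromosome 1, the latter 26.1% of members against 26.4% of loci with an identifier.

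The sequences of 7 short loci are printed because the values below turn on them; they are RefSeq TAIR10.1, 5′ to 3′ on the strand of the locus, and capitals mark the longest reading frame with its stop. XLOC_003119, at chr1:21350884-21351040 (+ strand), and XLOC_032243, at chr5:16015541-16015657 (− strand), were listed at 0 in every untreated library and rose with cycloheximide. XLOC_009343, at chr2:5791831-5792003 (+ strand), fell with cycloheximide. XLOC_022633, at chr4:12354021-12354176 (+ strand), lies 889 bp downstream of MIR319a, and XLOC_032336, at chr5:16660784-16660931 (− strand), lies 143 bp upstream of MIR319b. XLOC_017037, at chr3:20187874-20188036 (+ strand), and XLOC_027494, at chr5:8581017-8581205 (+ strand), lie in non-coding genes and were higher with dexamethasone.
XLOC_003119: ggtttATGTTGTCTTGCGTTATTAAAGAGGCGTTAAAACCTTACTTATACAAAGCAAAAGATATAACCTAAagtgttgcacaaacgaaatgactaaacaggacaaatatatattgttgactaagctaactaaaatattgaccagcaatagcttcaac
XLOC_032243: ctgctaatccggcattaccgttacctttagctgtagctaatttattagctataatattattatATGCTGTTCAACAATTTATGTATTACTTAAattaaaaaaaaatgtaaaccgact
XLOC_009343: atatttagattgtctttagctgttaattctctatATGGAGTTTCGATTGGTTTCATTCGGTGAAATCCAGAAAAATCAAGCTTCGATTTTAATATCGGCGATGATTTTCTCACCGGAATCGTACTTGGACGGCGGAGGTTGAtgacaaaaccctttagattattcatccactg
XLOC_022633: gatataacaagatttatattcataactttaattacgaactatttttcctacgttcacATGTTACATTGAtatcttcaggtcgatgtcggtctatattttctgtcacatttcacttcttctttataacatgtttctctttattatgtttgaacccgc
XLOC_032336: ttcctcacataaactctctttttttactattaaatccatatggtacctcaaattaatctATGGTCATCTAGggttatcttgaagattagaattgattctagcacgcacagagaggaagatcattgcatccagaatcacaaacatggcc
XLOC_017037: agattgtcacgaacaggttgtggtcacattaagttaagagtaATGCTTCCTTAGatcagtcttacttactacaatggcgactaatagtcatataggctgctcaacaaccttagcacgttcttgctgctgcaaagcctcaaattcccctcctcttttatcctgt
XLOC_027494: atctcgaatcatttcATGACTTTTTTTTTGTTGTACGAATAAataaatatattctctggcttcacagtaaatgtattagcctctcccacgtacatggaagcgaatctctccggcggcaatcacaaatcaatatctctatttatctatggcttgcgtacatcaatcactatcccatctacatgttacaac
The frames were short: 21 codons in XLOC_003119, 35 codons in XLOC_009343, 9 codons in XLOC_032243, 8 codons in XLOC_027494 and 3 codons in each of the other three.

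Most loci had low RNA levels, with a few very high exceptions. The median over the longer class of the mean FPKM was 2.57, against 14.4 for loci of that length with an identifier; in the shorter class it was 10.96 against 66.7. A mean of at least 1, the level needed for testing, was reached by 554 loci, 338 of 300 bp or longer and 216 shorter. The highest of the longer loci was XLOC_001796, 57 bp upstream of AT1G31910, which read 9394, 7141 and 9629 FPKM in untreated libraries 1 to 3, 8668, 15150.5 and 15901 with cycloheximide and 6889.7, 12016 and 9166 with dexamethasone and cycloheximide. These ranges overlap between the untreated and the cycloheximide libraries, and the locus overlaps another entry of the table. The highest of the shorter loci was XLOC_014042, of 102 bp, nested in the longer XLOC_014041 and read at 23188, 16818 and 14508, 9618, 7004 and 15456 and 14065, 9985 and 11693 FPKM in the 3 groups. Its cycloheximide libraries overlapped those of both other groups. Neither XLOC_001796 nor XLOC_014042 was called in either comparison.

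With cycloheximide more of the longer loci rose than fell. In the longer class 109 of 338 tested loci rose and 39 fell (limma on log2(FPKM + 1), adjusted p under 0.05 over all 19569 tested loci of the table). The background in all tested loci of that length was 27.1% higher and 28.9% lower, and the members gave 32.2% higher and 11.5% lower. Each background given here and below includes the members themselves. The share that rose was near the background and the share that fell was lower than it. The median difference was 0.21 in members against −0.04 in all loci of that length; neither gap was tested. In the shorter class 44 of 216 rose and 20 fell, 20.4% and 9.26%, where the background was 13.5% and 13.0%. These counts include 22 longer and 22 shorter rises of loci listed at 0 in all untreated libraries, which reached the level needed for testing only through treated libraries and so had to differ. With members above 0 in an untreated library only, an alternative added after the values were seen, 87 of 311 longer loci rose and 39 fell, 28.0% and 12.5%, where the background was 26.9% and 29.0%. In the shorter class 22 of 190 then rose and 20 fell, 11.6% and 10.5%, where it was 9.92% and 14.1%. Of all rises, 71 of the 109 longer and 32 of the 44 shorter had an untreated mean under 1. These passed the level needed for testing only through treated libraries. The subset above 0 in an untreated library still holds part of them, so its counts of rises do not remove this effect of the filter. The median of log2(FPKM + 1) of the tested loci itself moved from between 4.26 and 4.30 in untreated libraries to between 4.39 and 4.40 with cycloheximide. With each library centred on that median, 97 longer members rose and 53 fell, against 22.5% and 39.0% of all loci, and 40 shorter members rose and 28 fell, against 12.2% and 16.5%. Without untreated replicate 2 the count of longer members that fell was 22.

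**Figure D1:**
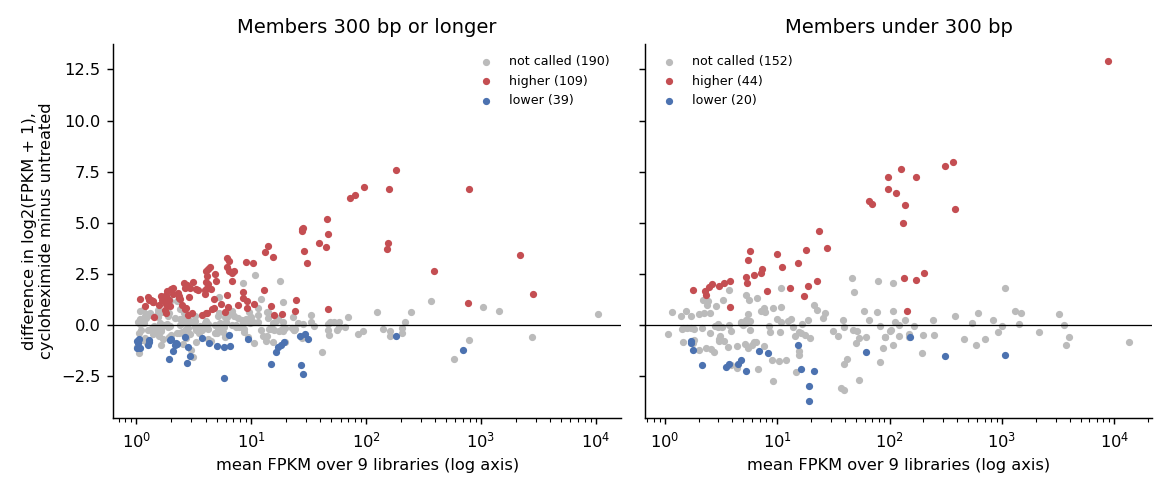
Each point is a tested locus without an identifier, placed by its mean FPKM over 9 libraries (log axis) and by its difference in log2(FPKM + 1), cycloheximide minus untreated; colour gives the limma call. The largest fall is −3.70. Loci undetected in every untreated library are drawn too and could only rise, so the extents of rises and falls are not compared.

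The members were also split by level. Among longer members with a mean FPKM of at least 5, 50 rose and 18 fell of 170, where the background was 27.3% and 30.7%. Under that mean 59 rose and 21 fell of 168, where the background was 26.0% and 19.5%. Leaving out members that overlap another entry or have a copy elsewhere, an alternative added after the values were seen, 98 rose and 33 fell of 277. These are 35.4% and 11.9%, beside 27.1% and 28.9% of all longer loci. In the shorter class that left 35 that rose and 12 that fell of 146.

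The calls are also given by position relative to genes, without a test between classes and beside the 27.1% higher and 28.9% lower of all longer loci. Among the longer loci on the opposite strand of a gene 21 rose and 2 fell of 58. Among those farther than 500 bp from any gene on their own strand, 16 rose and 3 fell of 44. Loci of that class are called away from genes below, although a gene on the other strand may lie closer. Members in genes named elsewhere in the table gave 21 that rose and 9 that fell of 62. In non-coding genes that the table does not name, 32 rose and 17 fell of 104; within that class the long non-coding RNA genes gave 14 and 4 of 33. In the shorter class, where the background was 13.5% higher and 13.0% lower, the opposite-strand loci gave 8 and 5 of 29 and the farther ones 10 and 5 of 33. All counts by position include loci listed at 0 in all untreated libraries. Loci overlapping small nucleolar RNA genes, a group singled out after its values were seen, gave none that rose in either length class. Of these, 5 of 6 longer loci and 1 of 3 shorter ones fell. The labels of kit and design conflict on whether strand was recorded, so opposite-strand values may hold fragments of the gene facing them.

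**Figure D2:**
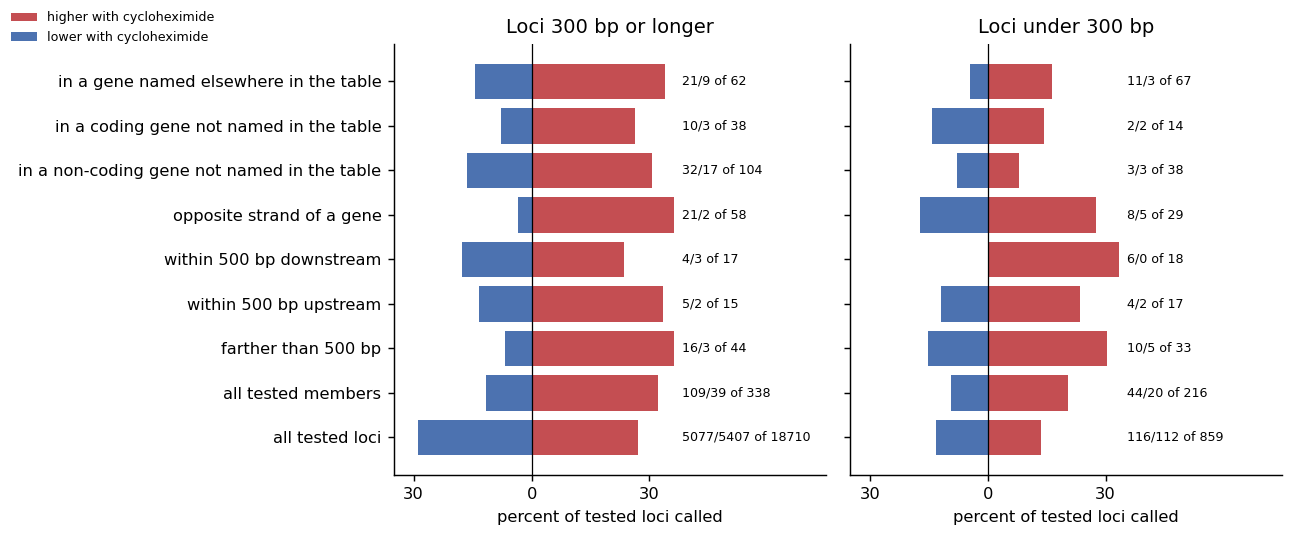
Bars give the percent of tested loci called higher (right) or lower (left) with cycloheximide by position class, separately for loci of 300 bp or longer and under 300 bp; the numbers are higher/lower of tested. In the longer class the lower bar of all tested loci, at 28.9%, is longer than that of every class of members.

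XLOC_003119 went from 0 to very high values and sits in repeated sequence. It was listed at 0 in all 3 untreated libraries, read 7310.5, 6882 and 9075 FPKM with cycloheximide and 8386, 20839.5 and 27094 with dexamethasone and cycloheximide. The cycloheximide and untreated libraries were far apart; for this and the other loci listed at 0 in all untreated libraries no fold and no p against that group is given, since only the treated libraries took them past the level needed for testing. The locus lies 125 bp upstream of AT1G57650 and inside a longer entry on the same strand whose annotation names AT1G57630, AT1G57640 and AT1G57650; that entry read 0, 0.210 and 0.141 untreated and 37.1, 54.3 and 85.0 with cycloheximide, so it was low and high in the same libraries.

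Sequence between 93.6% and 99.4% identical to XLOC_003119 occurs at 7 other places, which form pairs with it and with each other. The nearest copy, at chr1:21346189-21346345, is 99.4% identical and starts 4695 bp before it, with the pseudogene AT1G57640 on the opposite strand in between. On chromosome 4 a pair with starts 4688 bp apart encloses the pseudogene AT4G22040, and on chromosome 5 pairs 4690 and 4687 bp apart enclose AT5G25045 and AT5G54203, also pseudogenes on the opposite strand. A direct repeat at both ends is the known layout of LTR retrotransposons; whether these pseudogenes belong to that class was not tested. The copies below are printed on the + strand, with capitals at the bases that differ from XLOC_003119.
copy at chr1:21346189-21346345: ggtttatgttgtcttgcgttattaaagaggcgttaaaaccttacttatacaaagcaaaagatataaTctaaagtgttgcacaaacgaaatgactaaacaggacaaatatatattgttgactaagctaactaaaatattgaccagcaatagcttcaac
copy at chr4:11676495-11676651: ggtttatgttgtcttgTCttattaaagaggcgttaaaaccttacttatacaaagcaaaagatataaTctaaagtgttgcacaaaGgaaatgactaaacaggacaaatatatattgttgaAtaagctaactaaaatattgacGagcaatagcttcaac
copy at chr4:11681183-11681339: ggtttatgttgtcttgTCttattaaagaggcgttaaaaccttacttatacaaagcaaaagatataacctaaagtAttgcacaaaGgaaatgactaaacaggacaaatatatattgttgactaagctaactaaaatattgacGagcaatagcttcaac
The copy on chromosome 1 differs at a single base, C67T counted from the first base of XLOC_003119, and those on chromosome 4 differ at 6 and 5 bases. The pseudogene AT1G57640 itself, read on its own strand, had 0, 0.00275 and 0 FPKM untreated and 0.0576, 0.272 and 0.570 with cycloheximide, so in every cycloheximide library it was far below the repeat.

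Other short loci also went from 0 to high values. XLOC_032243, whose nearest gene on its strand is more than 500 bp away, was at 0 in each untreated library; it read 106, 297 and 329 after cycloheximide and 913, 375 and 768 after both compounds. XLOC_002077, in AT1G36005, a protein-coding gene not named in the table, was at 0 untreated, 398, 189.7 and 219 with cycloheximide and 557, 472 and 1459.8 with both; a copy on chromosome 5 is 99.1% identical. Neither locus had a cycloheximide library that reached down to an untreated one, which the rule that named them required. Over all members, 69 were listed at 0 in the 3 untreated libraries, 3 in the 3 cycloheximide libraries and 4 in the 3 libraries with dexamethasone. The 43 longer ones made 9.11% of members, against 2.2% of loci with an identifier selected by the same FPKM rule. The 26 shorter ones made 11.6%, against 4.09%.

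Among longer loci called with no overlap between the groups compared, the largest rises were of several kinds. XLOC_006964, at chr1:19321178-19321489 (− strand) and away from genes, was listed at 0 in each untreated library; it read 73.3, 428 and 220.4 after cycloheximide and 205, 446 and 280.4 after both. XLOC_026598 lies in AT5G07165, a protein-coding gene that the table does not name, and read 0.142, 0.383 and 0.122 untreated, 98.9, 143 and 153 with cycloheximide and 163, 149.8 and 162 with both. It rose by 6.75 ± 0.16 (log2 difference ± SE, n = 3 a group), and the untreated libraries lay far below the others. Its untreated mean was under 1, so it passed the level needed for testing only through treated libraries. For this and the other named rises with such an untreated mean, no p against untreated is given. XLOC_005941 runs antisense to the long non-coding gene AT1G06163 and starts 206 bp after GRX480, a glutaredoxin gene of the salicylic acid response. It read 0.753, 0.540 and 0.238 untreated, 99.5, 159.7 and 222 with cycloheximide and 288, 295 and 353 with both, a difference of 6.68 ± 0.27 for cycloheximide against untreated. All 3 untreated libraries were below 1, and every treated library was near 100 or above.

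The next large rises in the longer class varied more between libraries. XLOC_033006, away from genes, read 0.153, 0.0406 and 0.0665 untreated, 52.6, 75.1 and 171 with cycloheximide and 138, 105 and 179 with both, and rose by 6.35 ± 0.38. XLOC_007589, in the misc_RNA gene AT1G09745, was at 0 untreated, 44.7, 80.8 and 109.9 with cycloheximide and 127, 11.5 and 276 with both, and overlaps another entry. XLOC_011000, with 22.6% of its length in exons of the long non-coding gene AT2G09270, was at 0 untreated, 0.376, 526 and 1481 with cycloheximide and 686, 411 and 3971 with both. In the last, cycloheximide library 1 was near 0 while the others were high.

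XLOC_024842, away from genes, read 1.66, 1.75 and 1.42 untreated, 45.3, 67.6 and 59.2 with cycloheximide and 81.1, 84.4 and 78.1 with both, a rise of 4.47 ± 0.13 (limma adjusted p = 2.01e-07). XLOC_029312, also away from genes, read 0.289, 0.616 and 0.713 untreated, 40.1, 36.03 and 44.3 with cycloheximide and 54.999, 33.3 and 41.5 with both, a rise of 4.75 ± 0.18. In both, the untreated libraries were low and did not overlap the treated ones. XLOC_003608, 375 bp downstream of AT1G67340, read 0.468, 0.256 and 0 untreated, 7.97, 8.16 and 20.1 with cycloheximide and 4.87, 5.84 and 7.87 with both and rose by 3.29 ± 0.34. AT1G67340 itself read 28.1, 22.96 and 27.97 untreated and 72.7, 73.1 and 84.9 with cycloheximide, so gene and downstream locus were both high in the treated libraries.

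Highly expressed loci on chromosome 5 rose next to each other. XLOC_028687, at chr5:17949370-17950212 (+ strand) in AT5G44563, read 1196, 1062 and 1215 untreated, 2700.4, 2805 and 5087 with cycloheximide and 4077, 2872 and 4371 with both, a rise of 1.55 ± 0.30 (limma adjusted p = 0.00265). XLOC_028689, 6576 bp long, covers the misc_RNA gene AT5G00585 and starts 212 bp after AT5G44565. It read 224, 294 and 221 untreated, 2153, 2518 and 3614 with cycloheximide and 2781, 2768 and 5233 with both, a rise of 3.46 ± 0.31 (adjusted p = 4.34e-05), and overlaps 2 other entries. Neither had an untreated library as high as a cycloheximide library.

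**Figure D3:**
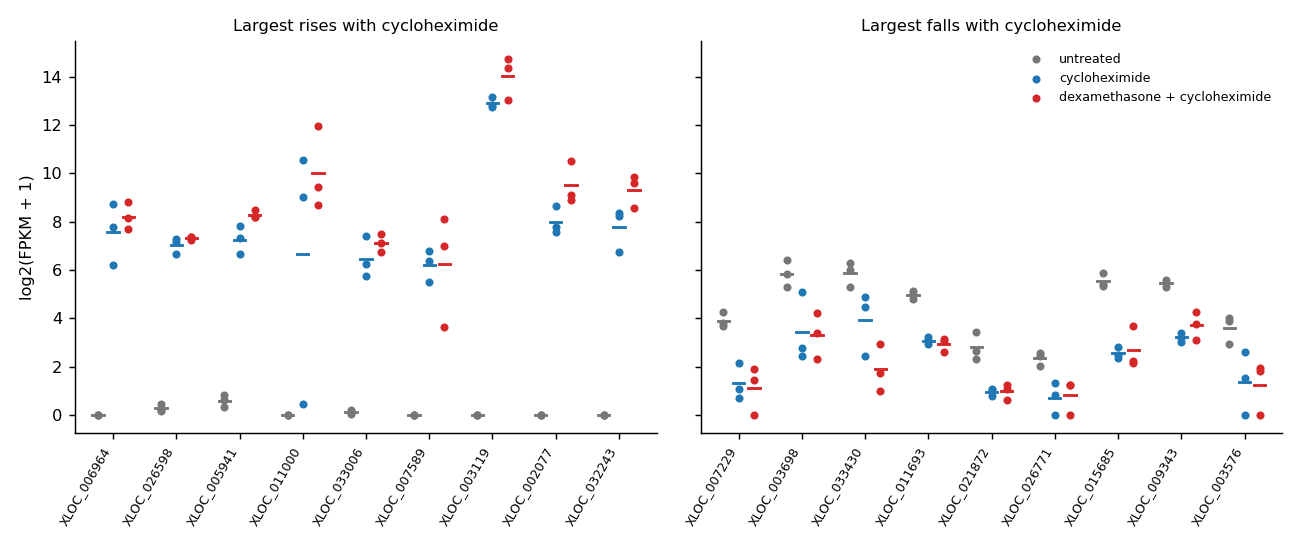
Points are single libraries and bars their group means on log2(FPKM + 1). Shown are the 9 largest rises and 9 largest falls with cycloheximide among called loci whose untreated and cycloheximide libraries did not overlap. Within each panel the first 6 are 300 bp or longer and the last 3 shorter. Untreated libraries lie at or near 0 in the left panel and above the cycloheximide libraries in the right one. The lack of overlap follows from the choice.

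Of the 39 longer loci that fell, 17 lay in non-coding genes that the table does not name. XLOC_007229, in the long non-coding gene AT1G08103, read 17.9, 12.9 and 11.7 untreated, 3.48, 1.12 and 0.636 with cycloheximide and 2.77, 0 and 1.71 with both, and fell with a difference of −2.58 ± 0.52 (limma adjusted p = 0.00359). XLOC_011693, with 22.1% of its length in exons of the small nucleolar RNA gene AT2G04955, read 34.01, 30.7 and 26.8, 8.31, 7.59 and 6.56 and 7.27, 5.14 and 7.87 in the same order, a difference of −1.89 ± 0.15 (adjusted p = 2.65e-05). Whether the small nucleolar RNA itself fell was not tested. Small nucleolar RNAs guide the modification of ribosomal RNA. XLOC_026771, in a long non-coding gene 145 bp after the small nucleolar RNA gene SNOR77, read 4.87, 4.50 and 3.08, 1.51, 0.773 and 0 and 1.33, 0 and 1.33, a difference of −1.63 ± 0.42 (adjusted p = 0.0111; 0.0736 with a pseudocount of 0.1). None of these had a cycloheximide library within the untreated range, but they were chosen among called falls without such overlap.

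Other falls came with a changing host gene or with uneven libraries. XLOC_021872 lies wholly in exons of AT4G11320 and read 9.86, 5.32 and 4.002 untreated and 0.703, 1.04 and 1.08 with cycloheximide, a difference of −1.86 ± 0.29 (limma adjusted p = 0.000882). The entry of AT4G11320 read 1071, 817 and 663 and 192, 335 and 153, so both were lower in every treated library. XLOC_003698, in the misc_RNA gene AT1G09825, read 83.8, 55.8 and 37.8 untreated and 4.46, 33.3 and 5.79 with cycloheximide, a difference of −2.40 ± 0.74 (adjusted p = 0.0239). XLOC_033430, in exons of RIP5 and overlapping 2 other entries, read 63.4, 38.3 and 76.8 and 4.42, 28.7 and 21.2, a difference of −1.93 ± 0.69 (adjusted p = 0.0438; 0.0653 with a pseudocount of 0.1). Both calls were lost without untreated replicate 1 or 2 and without cycloheximide replicate 1 or 3, with adjusted p between 0.0572 and 0.105 in those fits. For XLOC_033430 the fits without untreated replicate 3 and without dexamethasone replicate 1 lost it too, at 0.117 and 0.0591.

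Among falls of shorter loci whose libraries did not overlap between the groups, the 3 largest were these. XLOC_009343, away from genes, read 42.6, 47.3 and 38.7 untreated, 7.18, 9.54 and 8.17 with cycloheximide and 18.4, 12.5 and 7.56 with both, a difference of −2.24 ± 0.26 (limma adjusted p = 0.000199). XLOC_015685, in the long non-coding gene AT3G04975 and with a copy at 94.9% identity, read 57.3, 39.4 and 41.5, 4.15, 6.04 and 4.61 and 3.75, 11.8 and 3.41, a difference of −2.98 ± 0.38 (adjusted p = 0.000321). XLOC_003576, 721 bp downstream of MIR157b, read 13.8, 15.04 and 6.68, 5.01, 0 and 1.91 and 2.57, 2.84 and 0, a difference of −2.23 ± 0.73 (adjusted p = 0.0299; 0.109 with a pseudocount of 0.1). The first 2 had untreated libraries well above all others, and the last was called in 5 of 9 fits that left out a library; those without untreated replicate 1 or 2 and without cycloheximide replicate 2 or 3 lost it, at adjusted p between 0.0648 and 0.0901.

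Loci near microRNA genes formed a set that was put together after the values were seen. MicroRNAs are cut from longer primary transcripts, and mapped RNA around a hairpin can come from such a transcript. Of 20 members within 1500 bp of a microRNA gene on the same strand, 14 lay downstream, 3 upstream and 3 overlapped it. Of the 16 that were tested 7 fell and 2 rose with cycloheximide, where 28.2% of all tested loci fell and 26.5% rose.

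MIR319a had 2 such loci downstream, and both fell. The microRNA miR319 represses TCP transcription factors that limit cell proliferation in leaves and petals. XLOC_022632, 225 bp downstream, read 978, 1299 and 1142 untreated, 247, 687 and 724 with cycloheximide and 409.5, 431 and 369.9 with both, a difference of −1.19 ± 0.38 for cycloheximide against untreated (limma adjusted p = 0.0271). XLOC_022633, the 156 bp locus printed above, read 1869, 1903 and 2259, 905, 637 and 694 and 399.7, 554 and 359, a difference of −1.44 ± 0.21 (adjusted p = 0.000652). In both, every untreated library lay above every treated one, and both overlap the longer entry of the table that bears the MIR319a name, which read 82.5, 79.2 and 72.4 untreated, 43.5, 39.5 and 34.0 with cycloheximide and 27.5, 15.7 and 20.6 with both.

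XLOC_032336, upstream of the MIR319b hairpin on its strand, read 220.3, 207 and 127 untreated, 61.9, 26.6 and 81.05 with cycloheximide and 0, 0 and 13.6 with both. The difference with dexamethasone was −4.42 ± 0.97 (limma adjusted p = 0.0493), and that for cycloheximide against untreated was −1.79 ± 0.97 (adjusted p = 0.152). Each untreated library lay above each cycloheximide library, and each of those above the libraries with dexamethasone, of which 2 were listed at 0; the dexamethasone call was kept in 1 of 9 fits that left out a library, the one without dexamethasone replicate 3 (adjusted p = 0.0081), and the others gave 0.071 to 0.14. The table's entry for MIR319b itself was at 1.51, 0 and 2.73 untreated and at 0 in every treated library.

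Other microRNA neighbours were called as well. XLOC_010867, 769 bp downstream of MIR160a, read 4.61, 6.29 and 4.30 untreated and 3.51, 1.12 and 1.58 with cycloheximide, a difference of −1.04 ± 0.28 (limma adjusted p = 0.013). XLOC_004399, 544 bp downstream of MIR165a, read 1.84, 2.35 and 1.45 and 0.766, 0.981 and 0.323, a difference of −0.78 ± 0.19 (adjusted p = 0.00974). XLOC_001143, 704 bp downstream of MIR394a, read 2.35, 2.62 and 2.04 and 1.23, 1.42 and 0.609, a difference of −0.70 ± 0.25 (adjusted p = 0.0437). In none of the 3 did a cycloheximide library reach the lowest untreated one. In the opposite direction XLOC_006791, 253 bp downstream of MIR157d, read 56.3, 71.5 and 46.2 untreated and 187, 269 and 389 with cycloheximide and rose by 2.22 ± 0.33 (adjusted p = 0.000756). The table's MIR157d entry read 4.63, 2.43 and 0 and 16.4, 7.61 and 13.4, so hairpin entry and downstream locus were both higher in all 3 cycloheximide libraries. XLOC_028701, 1 bp downstream of MIR5628 and inside the coding gene AT5G44585, was at 0 untreated and read 5.61, 7.45 and 11.2 with cycloheximide.

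**Figure D4:**
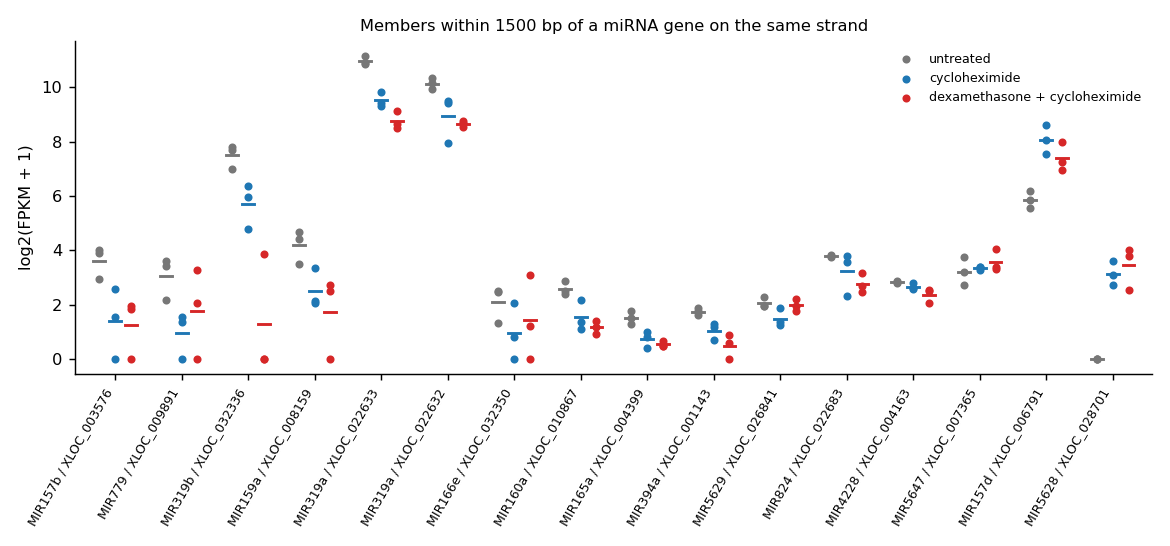
Points are single libraries and bars group means on log2(FPKM + 1) for the 16 tested loci within 1500 bp of a microRNA gene on the same strand, ordered by the cycloheximide difference. The 2 MIR319a loci are the highest and their group means step down from untreated to both compounds, whereas the loci of MIR157d and MIR5628 are higher with cycloheximide.

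Members were set beside the genes next to them, as a description of pairs that may share fragments and without a test of their coincidence. Of 38 opposite-strand pairs with both tested, 11 had both higher with cycloheximide, 2 both lower, 2 in opposite directions, 4 a call in the member only, 10 in the gene only and 9 in neither. Of 18 pairs with the member downstream, 5 had both higher and 1 both lower; of 21 with the member upstream, 2 and 1; and of 107 members inside a gene that has its own entry, 21 and 5, with 7 in opposite directions. With dexamethasone no pair was called in both of its loci among the 38, 18 and 21, and 2 of 107 were, both higher. As an example, XLOC_022113 on the opposite strand of AT4G15150 read 0, 2.001 and 0 untreated, 117, 151 and 112 with cycloheximide and 245, 234 and 176 with both, a rise of 6.45 ± 0.40. AT4G15150 read 0.277, 0.250 and 0.416, 19.8, 13.6 and 22.4 and 59.6, 41.8 and 33.9 in those groups, so both were near 0 only in the untreated libraries.

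Genes of the machinery that acts on such RNAs did not change as one block. Of 18 listed decay genes 13 were counted, and with cycloheximide 2 rose, 2 fell and 9 were not called, with a median difference of −0.02 against −0.05 over all loci, of which 26.5% rose and 28.2% fell. UPF2, RRP6L1 and RRP6L2 were in the fit but not counted, since the reference annotation does not give those names. None of them was called with cycloheximide (limma adjusted p = 0.960, 0.998 and 0.152). RRP4, a subunit of the exosome core, went from 21.5 ± 0.642 to 14.97 ± 1.58 FPKM (SD, n = 3), a difference of −0.50 ± 0.08 (limma adjusted p = 0.00146). UPF3, of nonsense-mediated decay, rose by 0.25 ± 0.07 (adjusted p = 0.0160). With values centred on the library medians 1 of the 13 was higher and 4 were lower, against 22.5% and 39.0% of all longer loci.

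Of 24 listed silencing genes 22 were tested, and 9 fell, 2 rose and 11 were not called with cycloheximide. Their median difference was −0.33 against −0.05 over all loci, of which 28.2% fell and 26.5% rose. Centring gave 14 lower and 1 higher, and it gave 39.0% lower and 22.5% higher over all longer loci. ATXR6, a histone methyltransferase that keeps heterochromatin silent, went from 8.41 ± 0.261 to 2.28 ± 0.219 FPKM (SD, n = 3), a difference of −1.52 ± 0.13 (limma adjusted p = 4.2e-05). Its relative ATXR5 rose by 0.51 ± 0.06 (adjusted p = 0.000184). CLSY1, which brings RNA polymerase IV to its targets, went from 10.4 ± 0.794 to 6.07 ± 0.363 FPKM (adjusted p = 0.000285) and to 4.39 ± 0.390 with dexamethasone, a difference of −0.39 ± 0.09 (adjusted p = 0.0493) that was not called after centring. With limma no decay gene was called with dexamethasone, and 0 of 13 had an unadjusted p under 0.05; of the 22 silencing genes 4 had one.

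Dexamethasone changed few members. Against cycloheximide alone, 9 of 338 longer loci were higher and 3 lower, where the background was 1.95% and 1.81%, and 6 of 216 shorter loci were higher and 3 lower, where it was 1.16% and 1.28%. The shorter background holds 859 loci with 10 called higher, and these include the 216 members and their 6 calls. As shares the members gave 2.66% and 0.888% in the longer class and 2.78% and 1.39% in the shorter one, and this comparison shares the cycloheximide libraries with the one above. Of the loci called higher, 4 longer and 1 shorter averaged under 1 FPKM over the untreated and cycloheximide libraries and so were tested only because of their values with dexamethasone. Among members at 1 or more there, an alternative added after the values were seen, 5 of 323 longer loci were higher and 3 lower, where the background was 1.78% and 1.83%, and 5 of 210 shorter ones were higher and 3 lower, where it was 1.08% and 1.31%. Same-numbered libraries of these 2 groups deviated together; a fit on the 6 libraries compared, blocked by replicate number, called 27 longer loci higher and 5 lower, where the background was 5.36% and 2.65%. The same block gave 11 and 5 shorter loci, where it was 2.56% and 2.91%. Without untreated replicates 1, 2 and 3 in turn the longer counts were 4 and 2, 0 and 0, and 5 and 3. Without cycloheximide replicates 1, 2 and 3 they were 0 and 0, 0 and 0, and 19 and 4, and without dexamethasone replicates 1, 2 and 3 they were 3 and 2, 3 and 0, and 0 and 0. In the fits with 0 and 0, limma gave 27 to 44 higher and 19 to 29 lower at an unadjusted p under 0.05, against 47 and 22 with all libraries. The shorter counts were 2 and 2, 2 and 0, and 3 and 0 without the untreated libraries in turn, 2 and 0, 3 and 1, and 10 and 2 without those with cycloheximide, and 4 and 1, 3 and 1, and 2 and 1 without those with dexamethasone. Of the 18 named calls, 7, 2 and 11 were kept without untreated replicates 1, 2 and 3, 2, 4 and 13 without those with cycloheximide, and 5, 2 and 3 without those with dexamethasone. With a pseudocount of 0.1, 7 of the 18 were kept. Of the loci given with a p for this comparison, XLOC_005288, XLOC_006878, XLOC_016467, XLOC_028739, XLOC_029795, XLOC_032336 and XLOC_032571 lost their call. XLOC_017037, given without a p, lost it too.

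**Figure D5:**
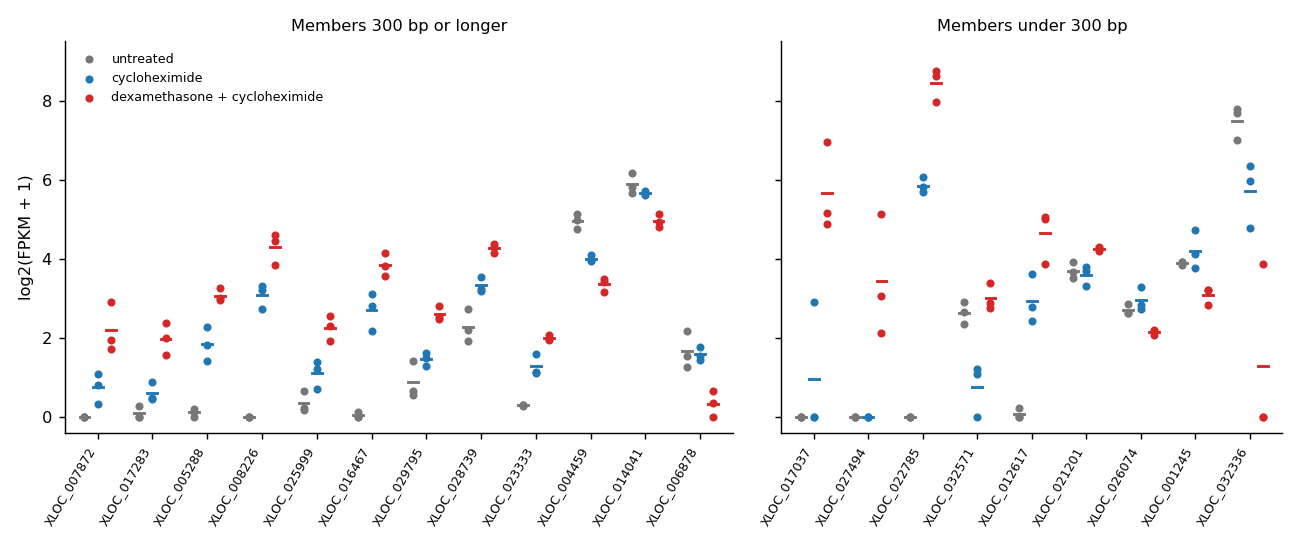
Points are single libraries and bars group means on log2(FPKM + 1) for all 21 loci called between dexamethasone with cycloheximide and cycloheximide alone, ordered by the difference within each length class. In every locus the 3 libraries with dexamethasone (red) lie wholly above or wholly below the 3 with cycloheximide alone (blue).

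XLOC_022785 was the only named dexamethasone call kept in all 9 fits that left out a library. It lies in AT4G26120, with 12.9% of its length in exons, was at 0 untreated, read 50.8, 65.8 and 54.9 with cycloheximide and 390.3, 428 and 249 with both, and was higher by 2.59 ± 0.19 (limma adjusted p = 0.00249). Its 3 groups were cleanly apart. AT4G26120 itself read 0.0475, 0.0506 and 0.0717, 1.29, 1.11 and 1.58 and 3.08, 2.94 and 3.44 in the 3 groups, so gene and inner locus rose through the same groups.

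Further short loci were higher with dexamethasone. XLOC_032571, inside AT5G45350, went the other way with each compound: it read 5.31, 4.12 and 6.53 untreated, 1.13, 0 and 1.30 with cycloheximide and 9.48, 6.38 and 5.73 with both, a difference of −1.88 ± 0.33 (limma adjusted p = 0.00172) and then of 2.24 ± 0.33 (adjusted p = 0.0176), the latter kept in 8 of 9 fits that left out a library and lost without dexamethasone replicate 3 (adjusted p = 0.0567). AT5G45350 read 72.004, 56.6 and 71.5 with cycloheximide and 56.3, 56.4 and 64.9 with both, and did not pass the test for the second difference (adjusted p = 0.468). XLOC_017037, in the ncRNA gene AT3G08410, was at 0 untreated, 0, 6.51 and 0 with cycloheximide and 34.7, 28.5 and 122 with both. XLOC_027494, in the long non-coding gene AT5G03845, was at 0 in all untreated and cycloheximide libraries and read 3.36, 7.35 and 34.1 with both; it entered the members and the test only through these 3 libraries, so no p is given. Both were highest in the 3 libraries with dexamethasone. Outside those libraries XLOC_017037 was above 0 only in cycloheximide replicate 2, so it entered the members only through dexamethasone libraries. No p is given for it either. Its call was kept without untreated replicate 3 or cycloheximide replicate 2 or 3. It was lost in the other 6 fits that left out a library and under the block on 6 libraries.

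The longer loci higher with dexamethasone had low levels and several lay beside genes. XLOC_008226 lies 96 bp upstream of ALDH10A8, a betaine aldehyde dehydrogenase gene, and read 0 untreated, 5.65, 8.94 and 8.19 with cycloheximide and 13.4, 23.4 and 21.04 with both, a difference of 1.22 ± 0.21 (limma adjusted p = 0.0312). ALDH10A8 read 207, 204 and 193 with cycloheximide and 257, 279.6 and 254 with both, which did not pass the test (adjusted p = 0.0654). XLOC_007872, 262 bp downstream of AT1G68250, was at 0 untreated, 0.261, 0.748 and 1.14 with cycloheximide and 2.30, 2.83 and 6.57 with both, a difference of 1.45 ± 0.32; it averaged under 1 FPKM without the dexamethasone libraries, so no p is given. AT1G68250 itself read 0.255, 0.181 and 0.378, 227, 493 and 525 and 738, 1049 and 1273, so gene and downstream locus were highest in the same libraries. XLOC_028739, 120 bp downstream of RHA1, a Rab GTPase gene, read 5.60, 3.57 and 2.77, 8.13, 10.7 and 8.45 and 16.8, 18.8 and 19.6, a difference of 0.95 ± 0.19 (adjusted p = 0.0423; 0.0519 under the block on 9 libraries). XLOC_029795, 311 bp upstream of the purple acid phosphatase gene PAP29, read 1.67, 0.588 and 0.459, 2.06, 1.42 and 1.83 and 4.77, 4.52 and 5.99, a difference of 1.14 ± 0.23 (adjusted p = 0.0414). In all 4 the libraries with dexamethasone were above all others.

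Other longer loci were higher with dexamethasone too. XLOC_017283 read 0.209, 0 and 0 untreated, 0.379, 0.846 and 0.403 with cycloheximide and 1.99, 2.97 and 4.17 with both, a difference of 1.37 ± 0.23, with no p for the same reason. XLOC_005288, with 13.3% of its length in exons of the long non-coding gene AT1G05217 and facing WAKL6, read 0.0991, 0 and 0.155, 2.56, 1.68 and 3.88 and 6.99, 6.75 and 8.59, a difference of 1.23 ± 0.21 (limma adjusted p = 0.0301). XLOC_016467, on the opposite strand of the pseudogene AT3G44717, read 0, 0.0811 and 0, 3.55, 5.93 and 7.69 and 10.8, 13.1 and 16.6, a difference of 1.14 ± 0.24 (adjusted p = 0.0427). In these 3 the untreated libraries were lowest and the libraries with dexamethasone highest, with no overlap. The gap between cycloheximide and dexamethasone libraries came with the choice of these loci. XLOC_025999, antisense to the long non-coding gene AT4G09335, read 0.135, 0.579 and 0.177 untreated, 1.33, 1.63 and 0.635 with cycloheximide and 2.80, 3.89 and 4.84 with both, a difference of 1.15 ± 0.24, again with no p for that reason.

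Falls with dexamethasone were fewer. XLOC_004459, in the misc_RNA gene AT1G04107, read 25.96, 30.4 and 34.1 untreated, 16.1, 14.7 and 14.5 with cycloheximide and 9.62, 7.93 and 10.2 with both, a difference of −0.65 ± 0.12 (limma adjusted p = 0.0335) after one of −0.95 ± 0.12 with cycloheximide alone (adjusted p = 0.000285). XLOC_014041, which encloses the very high XLOC_014042, read 55.5, 49.4 and 71.2, 48.3, 51.7 and 49.7 and 29.5, 33.99 and 26.8, a difference of −0.72 ± 0.14 (adjusted p = 0.0377; 0.0501 under the block on 9 libraries). XLOC_006878, away from genes, read 3.50, 1.92 and 1.39, 2.38, 1.69 and 1.93 and 0.277, 0 and 0.568, a difference of −1.25 ± 0.26 (adjusted p = 0.0439). All libraries with dexamethasone lay below all the others in these 3, which were chosen for not overlapping the cycloheximide libraries. Among the shorter loci XLOC_001245 went from 25.3, 12.7 and 16.5 with cycloheximide to 8.21, 8.25 and 6.14 with both (adjusted p = 0.0377; 0.0527 under the block on 6 libraries), and XLOC_026074 from 8.76, 5.67 and 6.10 to 3.53, 3.56 and 3.23 (adjusted p = 0.0345), each without overlap, as the rule of choice required.

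The summed level of the members was a small share of all FPKM. Longer members held 0.756% ± 0.058 of the FPKM sum untreated, 0.973% ± 0.127 with cycloheximide and 0.838% ± 0.150 with both (SD, n = 3). The rise of 0.217 percentage points with cycloheximide gave p = 0.1 in an exact two-sided permutation test over libraries, the smallest p that 3 against 3 allows. The difference of −0.136 points with dexamethasone gave an exact p of 0.2. Taken over members of all lengths, the cycloheximide difference was −0.044 points (exact p = 0.8), the opposite direction, so the share depends on whether short loci are counted.

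The tissue labels could be checked in part. The meristem genes STM, KNAT1, CLV3, WUS and TFL1 were all above an FPKM of 5 in every library, RHD6 of root hairs was at 0 throughout and VGD1 of pollen was at most 0.0190. WOX5, known from the root, was at 7.57 ± 4.60 FPKM untreated and RBCS1A, of leaf photosynthesis, at 3079 ± 158 (SD, n = 3). TFL1, which AP1 is known to repress, was at 142 ± 23.96 with cycloheximide and 38.6 ± 6.04 with both (limma adjusted p = 0.00279). With cycloheximide STM went from 147 ± 2.31 to 86.4 ± 15.2 FPKM (adjusted p = 0.0017) and KNAT1 from 117 ± 13.5 to 68.4 ± 3.93 (adjusted p = 0.000814), while WUS went from 6.87 ± 0.803 to 12.2 ± 0.124 (adjusted p = 0.000496). Of the floral organ genes AP3, PI and AG, PI went from 41.2 ± 2.99 to 29.4 ± 7.04 (adjusted p = 0.0308) and the other two were not called. The part of these marker changes in the members' values was not tested.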

How the data were processed

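TopHat, Cufflinks, Cuffdiff and the TAIR10 build are named in the submitters' processing notes; no source used here gives the scaling of FPKM from library to library. The authors deposited FPKM per assembled locus and library with a quantification status; without read numbers the depth of each library is unknown. Among 33871 loci, 77 had another status than OK in some library.

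The test took the 19569 OK loci whose FPKM averaged 1 or more over the 9 libraries, on log2(FPKM + 1) with limma 3.58.1 in R 4.3.3 (eBayes with trend, 3 groups, no block), adjusted by Benjamini-Hochberg; under 0.05 is a call. Differences are on the log2(FPKM + 1) scale and understate changes of low loci. The fit was tested on simulated data. Members were placed against RefSeq TAIR10.1 and compared with the genome by BLAST 2.17.0 (at least 90% identity over at least 50% of a locus). Members and lists were chosen with earlier results of these data known.

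Named loci were the 6 (under 300 bp, 3) largest non-overlapping rises and falls per comparison, the 6 (or 3) highest, and the 2 smallest p per position class. For loci named as largest rises or falls, the lack of overlap between the groups compared follows from the choice. Decay and silencing genes were named by the smallest p; 1 that the rule names is not reported here. Other named loci were chosen after their values were seen. Same-numbered libraries deviated together between cycloheximide and dexamethasone groups (r = 0.353, 0.131 and 0.213 over loci), so block fits are given there; between cycloheximide and untreated libraries r was 0.039, 0.032 and 0.108. Alternatives changed the pseudocount to 0.1, the filter, the scaling, the libraries fitted and the block; subsets by level were added after seeing the data.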

Additional observations from a re-analysis of the deposited data

How the results depend on the processing

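Counts of members called are given as higher and lower. For cycloheximide, a mean of at least 5 gave 50 and 17 longer loci and left 13 short loci (under 300 bp) that fell. Without any filter 59 longer loci fell. The block on 6 libraries, where numbers did not pair, gave 34 short loci that fell, and members without overlap or copy, an alternative chosen after seeing the data, gave 12. Members above 0 in an untreated library, also chosen after seeing the data, gave 22 short loci that rose. Leaving out 1 library gave 94 to 114 and 22 to 41 longer, and 33 to 44 and 14 to 28 short loci. For dexamethasone, the pseudocount of 0.1 gave 1 longer and 2 short loci that rose. A mean of at least 5 gave 2 and 3. The 6 libraries alone gave 0 and 0 longer (38 and 22 at an unadjusted limma p under 0.05), and 1 and 0 short (19 and 15); the replicate block on those 6 gave 27 and 5, and 11 and 5. Members without overlap or copy gave 1 short locus that fell, and those at a mean of 1 or more without dexamethasone libraries, added after seeing the data, gave 5 longer loci that rose. Leaving out 1 library gave 0 to 19 and 0 to 4 longer, and 2 to 10 and 0 to 2 short loci. Of 18 named dexamethasone calls, 1 was kept with the 6 libraries alone, 7 with the pseudocount of 0.1 and 14 with the block on 6; of 33 named cycloheximide calls, between 28 and 33 were kept in each fit that left out a library. The FPKM share over all lengths turned to −0.044 points. With either strand counted, 67 members lay farther than 500 bp from a gene. The causes were not tested. FPKM without read numbers leaves the error of low and short loci unknown.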
